A study of Mus musculus with 8 samples.

Results

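Mouse small-intestinal organoids labelled Tcf7l2 null, with and without Ascl2 overexpression, were compared on 2 of the 8 arrays of the series. Organoids are small epithelial bodies with crypt-like buds, grown from intestinal cells. For each probe, the Cy5 over Cy3 log2 ratio of the array labelled Tcf7l2 null was subtracted from that of the array labelled as Tcf7l2 null plus Ascl2 overexpression. The Tcf7l2 null organoids overexpressing Ascl2 received a 16 h pulse of 4OH-tamoxifen, which deletes Tcf7l2 and induces Ascl2. The Tcf7l2 null organoids received the same 16 h pulse, which deletes Tcf7l2. Both arrays carried their own RNA in Cy5 and RNA of dsGFP-transduced organoids, pulsed for 16 h to induce GFP, in Cy3, so the dsGFP control and the dye bias cancel in the difference. There was 1 array a side, with no replicate check, so no p-value is given and every value describes these 2 arrays. The sources used here do not state how many cultures or animals each RNA came from.

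Ascl2, of the basic helix-loop-helix family, is a transcription factor in the stem cells at the crypt base, and its gene is a target of Wnt signalling. Tcf7l2 (Tcf4) brings beta-catenin to DNA in the intestinal epithelium and is needed to keep crypt cells dividing. Cells leaving the crypt stop dividing and become absorptive enterocytes or secretory cells, among them Paneth, goblet, enteroendocrine and tuft cells.

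The array labels within experiment 2, which held both arrays, are in doubt. The 1 Ascl2 probe (mm9 chromosome 7, 150154439 to 150154498) read -0.92 on the array labelled as Tcf7l2 null plus Ascl2 overexpression and -0.57 on the array labelled Tcf7l2 null. Its difference was -0.35, whereas its Cy5 channel alone differed by 0.00 and the dsGFP channel by 0.46. The labelled Ascl2 gain was therefore not seen at this probe, and whether the probe can detect the introduced transcript was not analysed here. The probe read -0.31 and 0.12, over control, on the 2 Ascl2 overexpression arrays of experiment 1. It read -0.72 on the experiment 2 array labelled Ascl2 overexpression and -1.065 on the array labelled Ascl2 null. The 3 Tcf7l2 probes (mm9 chromosome 19) read -0.14, -0.21 and 0.17 on the array with Ascl2 overexpression and -0.10, -0.19 and -0.35 on the Tcf7l2 null array, and whether they lie in the deleted part was not analysed here. Across 19293 genes, which are not independent replicates, the ratios of the array labelled as Tcf7l2 null plus Ascl2 overexpression had a correlation of -0.37 with the mean of the 2 Ascl2 overexpression arrays of experiment 1, and those of the array labelled Tcf7l2 null a correlation of 0.61. If the labels of the 2 arrays had been exchanged, every difference between them given below would change sign. The ratios over dsGFP would keep their signs and belong to the other label. The names "array with added Ascl2" and "Tcf7l2 null array" used below only follow these labels.

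As labelled, the array with added Ascl2 had less RNA of cell division, stem cell and Paneth cell genes and more RNA of absorptive, enteroendocrine hormone and tuft cell genes than the Tcf7l2 null array. Of 119 measured genes of DNA replication, nucleotide synthesis and mitosis, 93 were lower by 2-fold or more and 0 higher by as much, with a median difference of -1.53. Of 170 measured absorptive genes, 61 were higher by 2-fold or more and 1 lower by as much, with a median of 0.82. Of all 19293 genes, 924 were lower by 2-fold or more (4.79%) and 558 higher by as much (2.89%), and the median was 0.02. In bulk RNA, fewer cells of a type and less RNA per cell cannot be told apart.

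**Figure D1:**
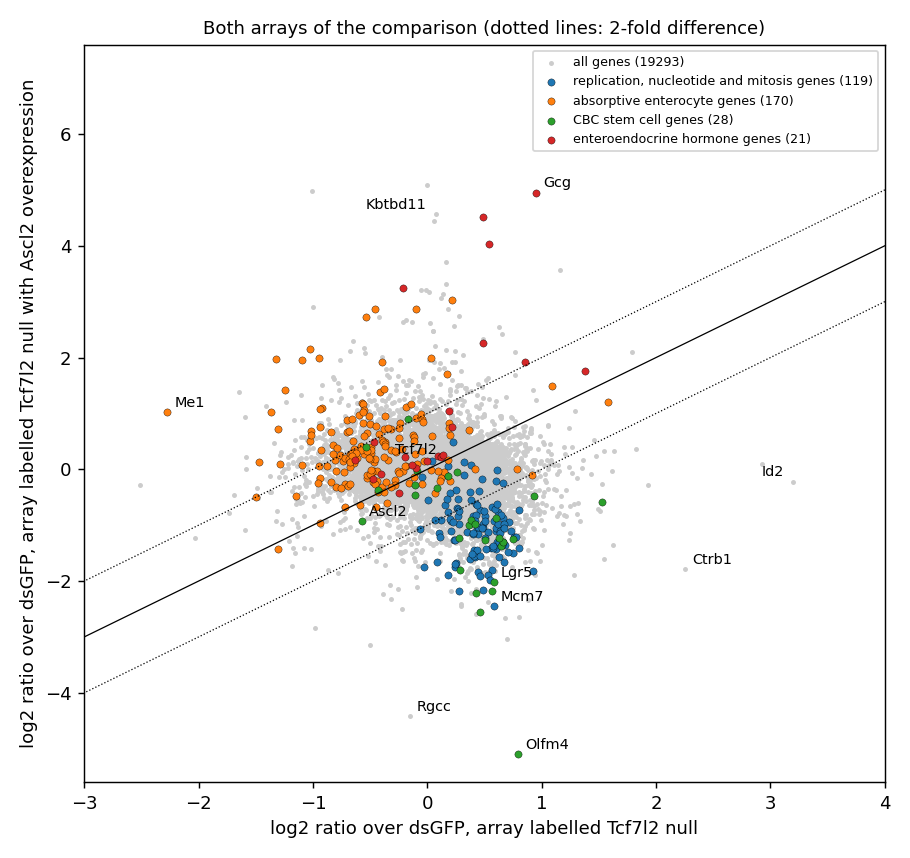
Each point is 1 gene, with its log2 ratio over dsGFP on the array labelled as Tcf7l2 null plus Ascl2 overexpression (vertical axis) against that on the array labelled Tcf7l2 null (horizontal axis). The solid line marks equal ratios and the dotted lines a 2-fold difference. Replication, nucleotide and mitosis genes (blue) lie mostly below the lower dotted line, and absorptive genes (orange) lie mostly above the solid line.

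The technical background was smaller but not absent. The dsGFP channel of the same 2 arrays, labelled as dsGFP RNA on both, differed by 2-fold or more at 161 genes (0.834%). The difference of ratios did so at 1482 genes (7.68%). On the dsGFP self-self array, which carried dsGFP RNA in both colours, 4 genes passed 2-fold (0.0208%). The first reference is a difference of 1 channel and the second a ratio on 1 array. Neither measures the spread of a difference of 2 ratios. The very largest values are less well separated: 36 genes reached a log2 difference of 3 in either direction, and 12 did so in the dsGFP channel. Among the 25 highest and 25 lowest differences, counted over genes with a plain current symbol and Cy5 well above background on both arrays, the dsGFP channel moved by 2-fold or more at 2, Aqp1 (-1.41) and Pcp4l1 (1.03). Of the 45018 spots, 1639 were controls, and none of the others was saturated on either array. Cy5 was well above background at 53.8% of non-control spots on the array with added Ascl2 and at 54.4% on the Tcf7l2 null array.

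**Figure D2:**
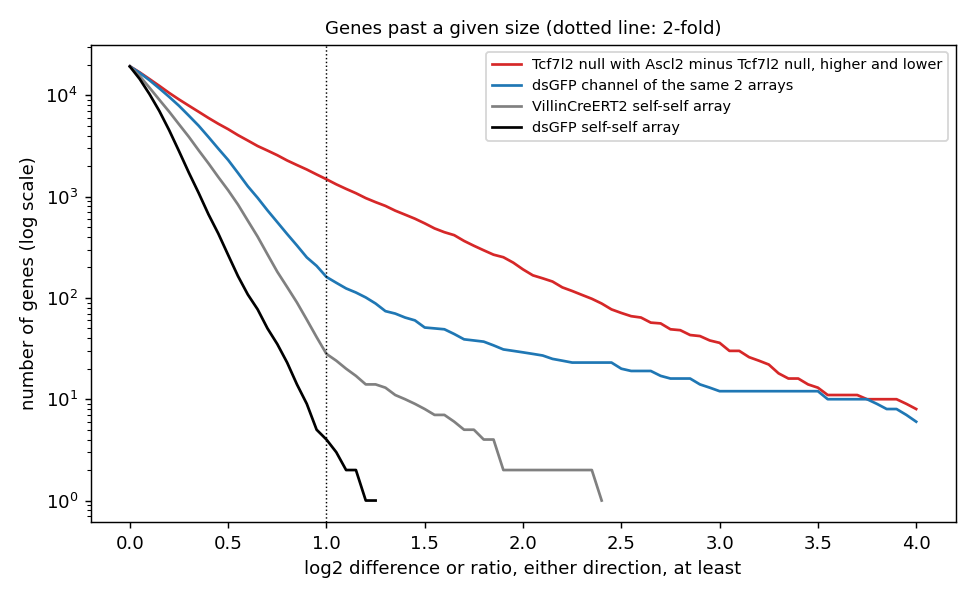
Number of genes (log scale) at or beyond a given log2 size in either direction. The difference between the 2 arrays (red) passes 2-fold at 1482 genes, the dsGFP channel of these arrays (blue) at 161 and the self-self arrays (grey and black) at 28 (0.145%) and 4, while the red and blue lines meet near the right edge.

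Most differences combined a shift on both arrays. Of the 924 lower genes, 376 were at least 2-fold below dsGFP on the array with added Ascl2 and 56 at least 2-fold above dsGFP on the Tcf7l2 null array, 8 were both, and 500 passed 2-fold on neither array alone. Their median ratio was -0.90 on the array with added Ascl2 and 0.51 on the Tcf7l2 null array. Of the 558 higher genes, 209 were at least 2-fold above dsGFP on the array with added Ascl2, 66 at least 2-fold below it on the Tcf7l2 null array, 12 both and 295 neither. Their median ratio was 0.82 on the array with added Ascl2 and -0.53 on the Tcf7l2 null array.

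Genes that load and fire replication origins were lower. Of 25 measured, 15 were at least 2-fold lower, 0 were higher, and the median difference was -1.14. Subunits of the MCM helicase, which unwinds DNA at the fork, led the list. Mcm7 was -2.45 on the array with added Ascl2 and 0.58 on the Tcf7l2 null array, a difference of -3.03. Mcm6 differed by -2.43, Mcm4 by -2.37, Mcm5 by -2.37 and Mcm3 by -2.28. The loading factors Cdc6 and Cdt1 were lower by smaller amounts, with differences of -1.50 and -1.04.

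Genes of the replication fork and of chromatin copying had a median difference of -1.52, and 22 of 30 were lower by 2-fold or more and 0 higher by as much. Uhrf1, which recruits the maintenance methyltransferase to new DNA, was -2.15 on the array with added Ascl2 and 0.49 on the Tcf7l2 null array. Chaf1b, a subunit of the chromatin assembly factor that deposits histones on new DNA, differed by -2.53. Pcna, the sliding clamp, differed by only -0.62. Nucleotide synthesis followed the same direction, with a median of -1.53, and 19 of 24 were lower by 2-fold or more. Dut, which removes dUTP, differed by -2.19, and Tk1, the salvage thymidine kinase, by -2.03.

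Mitosis genes had the lowest median of the lists, -1.72, and 37 of 40 were at least 2-fold lower. Kif20a, a kinesin of cytokinesis, was -2.17 on the array with added Ascl2 and 0.28 on the Tcf7l2 null array. Ect2, which activates RhoA at the cleavage furrow, differed by -2.32, and Cdc20, an activator of the anaphase-promoting complex, by -2.18. Mki67, the proliferation marker, differed by -2.07. Pttg1, the securin, stood apart at 0.26. Each gene's value is that of its brightest probe, and probes of 1 gene could disagree. The 2 Bub1 probes read -1.66 and 0.23, and the 2 Ect2 probes -2.32 and -0.34.

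Histone genes of the replication-dependent clusters had a median of -1.36, and 12 of 23 were lower by 2-fold or more and 0 higher by as much. H2ac23 was -1.90 on the array with added Ascl2 and 0.94 on the Tcf7l2 null array. These genes are near-identical copies, so a probe can read several. The dsGFP channel moved by a median of 0.29 over this list, the largest such shift among the lists, and its part in the result was not tested.

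Motif searches were run on promoters, taken from RefSeq (GRCm38.p6) as 250 bases before to 50 after each start, on both strands. Promoters were found for 12341 of the 19293 genes. An E2F motif (TTTCCCGC, TTTGGCGC, TTTCGCGC or TTTGCCGC), read by factors of the entry into replication, was in 10 of 24 promoters of the origin genes (41.7%), against 3.38% of all 15505 promoters. The cell cycle homology region (TTTGAA or TTCGAA), known from genes of mitosis, was in 28 of 35 promoters of the mitosis genes (80.0%), against 15.1% of all. The E2F and cell cycle homology stretches of the lowest genes that hold them are shown because the members of these lists moved together, with the motif in capitals. The E2F motif was in 1 of 24 promoters of the nucleotide synthesis genes (4.17%). Of the other motifs searched, CCAAT was in 59.5% of the promoters of all proliferation genes, against 37.7% of all. A TCF motif (ATCAAAG) was in 2.78% of the promoters of genes higher by 2-fold or more, 2.45% of those lower by as much and 2.9% of all. An E-box (CAGCTG) was in 13.9%, 15.2% and 15.9% of the same promoters. Among the lists, the TCF motif was in 6 of 17 promoters of the Paneth cell genes (35.3%), some of which are near-identical copies. A match is a description of these letters and not of binding.
Mcm7 (chr5:138171981-138172108, minus strand): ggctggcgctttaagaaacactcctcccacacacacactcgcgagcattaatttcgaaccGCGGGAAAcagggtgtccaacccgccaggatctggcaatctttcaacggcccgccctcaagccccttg
Uhrf1 (chr17:56304068-56304195, plus strand): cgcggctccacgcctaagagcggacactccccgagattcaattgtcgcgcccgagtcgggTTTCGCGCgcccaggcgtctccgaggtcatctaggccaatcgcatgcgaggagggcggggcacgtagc
Mcm6 (chr1:128359706-128359812, minus strand): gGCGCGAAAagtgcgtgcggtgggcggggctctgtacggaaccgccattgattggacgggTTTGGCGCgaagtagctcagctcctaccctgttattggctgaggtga
Ect2 (chr3:27153927-27154052, minus strand): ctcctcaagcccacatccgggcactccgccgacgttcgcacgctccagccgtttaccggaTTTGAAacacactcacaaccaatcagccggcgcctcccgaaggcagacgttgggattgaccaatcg
Cdc20 (chr4:118437344-118437421, minus strand): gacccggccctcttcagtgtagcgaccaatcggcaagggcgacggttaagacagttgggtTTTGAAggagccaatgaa
Mki67 (chr7:135716412-135716537, minus strand): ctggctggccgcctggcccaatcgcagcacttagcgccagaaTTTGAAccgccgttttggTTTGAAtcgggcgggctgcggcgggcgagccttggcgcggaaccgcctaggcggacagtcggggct

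Genes of G1 control were lower by less, with a median of -0.51, and 8 of 24 were lower by 2-fold or more. Ccnd2, a D-type cyclin, was -1.74 on the array with added Ascl2 and 0.74 on the Tcf7l2 null array. Cdk6, its partner kinase, differed by -1.94, although its 3 probes ranged from -1.94 to -0.14. Inhibitors of these kinases went both ways. Cdkn1c differed by 0.50 and Cdkn2b by 0.62. The 2 Cdkn2c probes ranged from -1.11 to -0.996, and the 3 Cdkn1b probes from -0.58 to -0.06. Myc targets and ribosome biogenesis genes had a median of -1.11, and 19 of 31 were lower by 2-fold or more and 0 higher by as much. Myc itself was -1.81 on the array with added Ascl2 and 0.36 on the Tcf7l2 null array. Ncl, the nucleolar protein nucleolin, differed by -2.16. All 34 measured cytosolic ribosomal protein genes had differences below 0, with a median of -0.46, and 1 of them, Rpl7 (-1.21), was at least 2-fold lower. The 3 Rpl7 probes ranged from -1.21 to -0.44.

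**Figure D3:**
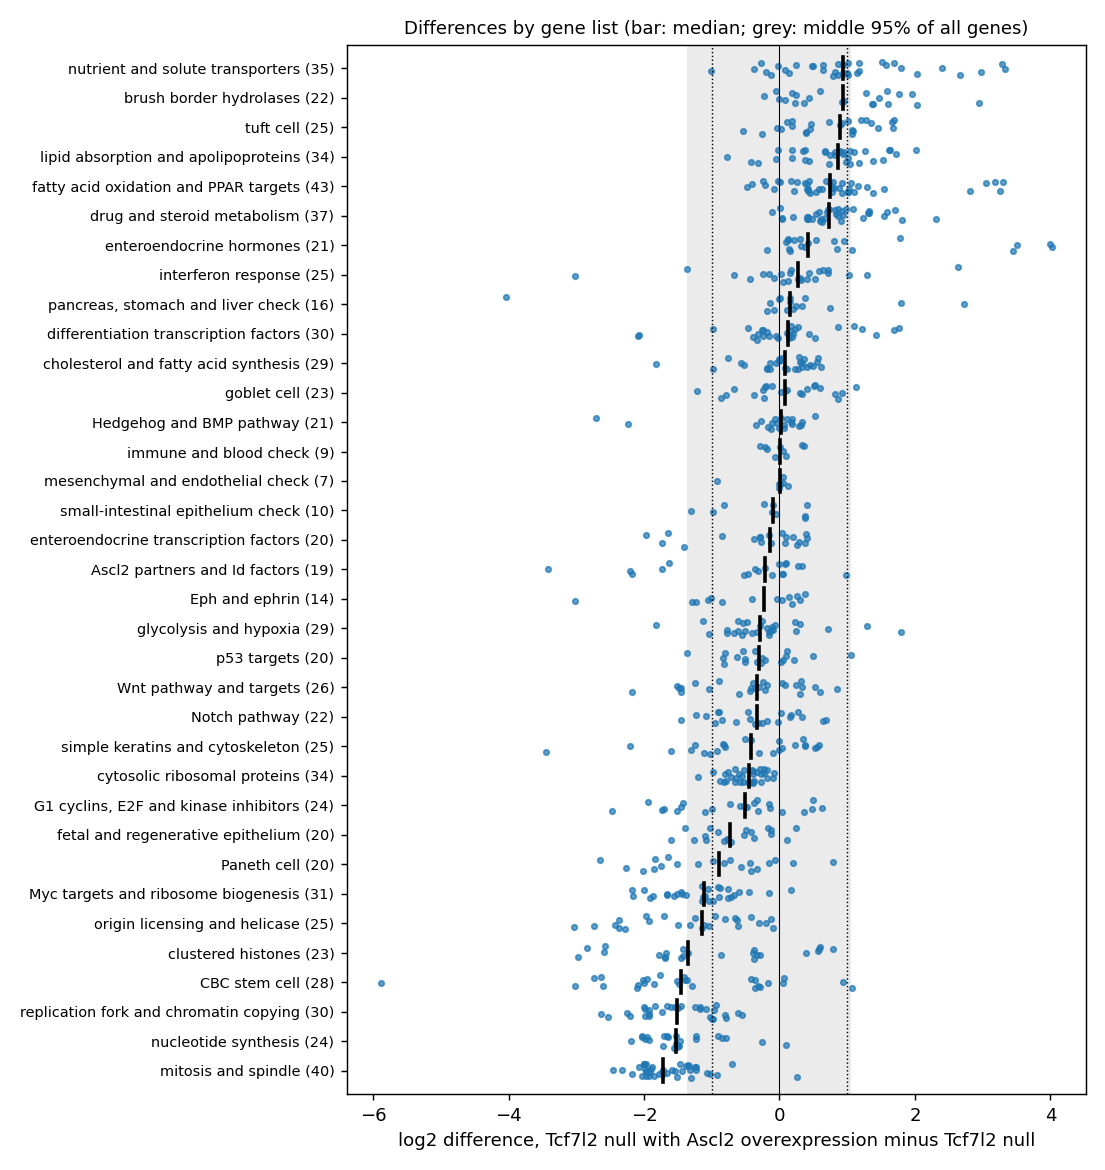
Log2 difference (array with added Ascl2 minus Tcf7l2 null array) of every measured member of each gene list, with the list median as a black bar and the number measured in parentheses. The grey band holds the middle 95% of all genes and the dotted lines mark 2-fold. Mitosis genes sit lowest with a median of -1.72, and transporters and brush border hydrolases highest with 0.94 each.

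Markers of crypt base columnar (CBC) stem cells, the cycling stem cells between Paneth cells, had a median of -1.45. Of 28 measured, 18 were at least 2-fold lower and 1, Vdr, the vitamin D receptor, was at least 2-fold higher (1.07). Olfm4, a secreted stem cell marker, had the lowest difference of all named genes, at -5.10 on the array with added Ascl2 and 0.79 on the Tcf7l2 null array. That difference was -5.89, and -6.77 with the scanner's own ratio. Lgr5, the R-spondin receptor that defines these cells, was -2.02 on the array with added Ascl2 and 0.58 on the Tcf7l2 null array. Its size depended on the processing, with a difference of -2.60 here and -4.33 with the scanner's own ratio. Ephb3, a receptor that positions cells along the crypt, differed by -3.01, Smoc2 by -2.02 and Sox9, a crypt transcription factor, by -2.09. The 3 Sox9 probes ranged from -2.09 to -0.31. Rnf43 and Znrf3, ligases that remove Wnt receptors, differed by only -0.41 and -0.36.

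Wnt pathway genes and targets were more mixed, with a median of -0.33, and 7 of 26 were lower by 2-fold or more. Axin2, a feedback inhibitor, was not well above background on the array with added Ascl2, and was brighter on the Tcf7l2 null array by at least 6.53-fold in Cy5. Its ratio over dsGFP differed by -1.48 here and by -4.65 with the scanner's own ratio. Apcdd1, a Wnt inhibitor, was 0.37 on the array with added Ascl2 and 1.82 on the Tcf7l2 null array. Sp5, a Wnt target, differed by 0.85, and Lgr4, another R-spondin receptor, by 0.60. The 3 Lgr4 probes ranged from -0.01 to 0.60. Ctnnb1, beta-catenin, differed by -0.21.

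Among the partners and antagonists of basic helix-loop-helix factors, Id2 stood out. Id proteins bind E proteins and keep them from DNA. Id2 was -0.22 on the array with added Ascl2 and 3.20 on the Tcf7l2 null array, so its difference of -3.42 came from the Tcf7l2 null array. Its 3 probes ranged from -3.42 to -0.45. Id1 differed by -0.11 and Id3 by -0.21, and the E proteins Tcf3, Tcf4 and Tcf12 by -0.46, -0.52 and -0.31. Notch pathway genes had a median of -0.34, and 3 of 22 were at least 2-fold lower, among them the target Hes5 (-1.45).

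Paneth cell genes, which encode antimicrobial proteins of the crypt base, had a median of -0.90, and 9 of 20 were lower by 2-fold or more and 0 higher by as much. Unlike the division genes, most named members were below dsGFP on both arrays. Lyz1, Paneth lysozyme, was -2.07 on the array with added Ascl2 and -0.32 on the Tcf7l2 null array. Ang4, an antimicrobial ribonuclease, was -3.14 on the array with added Ascl2 and -0.50 on the Tcf7l2 null array. Mmp7, the protease that activates defensins, differed by -1.65. The Ang and Defa families hold near-identical copies, so their single values are uncertain.

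Goblet cell genes showed little net difference, with a median of 0.09. Muc2, the main secreted mucin, was 1 of 23 at least 2-fold higher, at 0.12 on the array with added Ascl2 and -1.01 on the Tcf7l2 null array. Its 2 probes differed by 1.14 and 0.14. Foxa3 was the 1 at least 2-fold lower (-1.22). Clca1, Spdef and Tff3, further goblet genes, differed by 0.03, 0.09 and -0.23.

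Enteroendocrine hormone genes had a median of 0.42, and 6 of 21 were higher by 2-fold or more and 0 lower by as much. Gcg, which encodes proglucagon, was 4.95 on the array with added Ascl2 and 0.95 on the Tcf7l2 null array. Its difference was 4.00, and 4.65 with the scanner's own ratio. Gip, an incretin, was 4.51 on the array with added Ascl2 and 0.49 on the Tcf7l2 null array. Cck, cholecystokinin, was 4.04 on the array with added Ascl2 and 0.54 on the Tcf7l2 null array. Pyy, peptide YY, differed by 1.78, and by 0.59 at its other probe. Sst, somatostatin, was not well above background on the Tcf7l2 null array and at least 25.2-fold brighter with added Ascl2. The hormones did not move as 1 group, since Tac1, Nts and Ghrl differed by 0.15, 0.31 and 0.37. The transcription factors of these cells did not share the direction, with a median of -0.13, and 4 of 20 were lower by 2-fold or more. Neurog3, which starts enteroendocrine fate, was -1.09 on the array with added Ascl2 and 0.64 on the Tcf7l2 null array.

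Tuft cells are chemosensory cells of the epithelium. Of 25 tuft genes measured, 11 were higher by 2-fold or more and 0 lower by as much, with a median of 0.89. Dclk1, the usual tuft marker, was 1.33 on the array with added Ascl2 and -0.32 on the Tcf7l2 null array. The differences of its 4 probes ranged from 0.36 to 1.66. Alox5, of leukotriene synthesis, differed by 1.70 and Trpm5, a taste-signalling channel, by 1.08. Pou2f3, the tuft master regulator, was not well above background on either array.

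Absorptive genes were higher across their groups. Brush border hydrolases had a median of 0.94, and 10 of 22 were higher by 2-fold or more and 0 lower by as much. Ggt1, which cleaves gamma-glutamyl bonds, differed by 2.95, from a ratio of -0.95 on the Tcf7l2 null array. Ace, angiotensin-converting enzyme, differed by 1.76 and Dpp4, a dipeptidyl peptidase, by 1.46. Sis and Mgam, which digest starch and sugar, differed by 0.43 and -0.05. Transporters also had a median of 0.94, and 15 of 35 were higher by 2-fold or more and 1, the nucleoside transporter Slc28a2 (-1.02), at least 2-fold lower. S100g, a calcium-binding protein of calcium uptake, was 2.87 on the array with added Ascl2 and -0.45 on the Tcf7l2 null array. Slc6a20a, an imino acid transporter, differed by 3.29, Slc40a1, the iron exporter ferroportin, by 2.97 and Slc15a1, the peptide transporter, by 1.80. Slc5a1, the glucose transporter SGLT1, differed by -0.02.

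Lipid absorption genes had a median of 0.86, and 12 of 34 were higher by 2-fold or more and 0 lower by as much. Cd36, a fatty acid receptor, differed by 2.02, Fabp2, an intestinal fatty acid binding protein, by 1.72 and Mttp, which loads lipid on apolipoprotein B, by 1.27. Apoc3 differed by -0.02 and was near -1 on both arrays (-0.96 with added Ascl2 and -0.94 in Tcf7l2 null). Fatty acid oxidation and PPAR targets had a median of 0.74, and 14 of 43 were higher by 2-fold or more and 0 lower by as much. Me1, malic enzyme, was 1.03 on the array with added Ascl2 and -2.27 on the Tcf7l2 null array. Angptl4, an inhibitor of lipoprotein lipase, differed by 2.82 and Cpt1a, which admits fatty acids to mitochondria, by 1.03. Drug and steroid metabolism genes had a median of 0.72, and 10 of 37 were higher by 2-fold or more and 0 lower by as much. The glutathione transferase Gstm1 led them (2.31, with -1.28 in the dsGFP channel). The dsGFP channel moved by a median of -0.26 over this list, and its part in the result was not tested.

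An HNF4 motif (CAAAGTCC), read by nuclear receptors of the enterocyte programme, was in 12 of 173 promoters of absorptive genes (6.94%), against 1.5% of all. It was in 18.5% of the brush border promoters and in 0 of 37 promoters of the oxidation list. The stretches of the highest absorptive genes that hold it are shown, with the motif in capitals.
Ggt1 (chr10:75573245-75573367, plus strand): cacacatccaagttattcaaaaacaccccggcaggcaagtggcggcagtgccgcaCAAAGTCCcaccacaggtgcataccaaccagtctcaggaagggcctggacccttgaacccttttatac
Ace (chr11:105967784-105967911, plus strand): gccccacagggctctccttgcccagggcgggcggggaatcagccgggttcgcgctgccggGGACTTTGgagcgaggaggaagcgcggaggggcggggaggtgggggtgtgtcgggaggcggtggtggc
Rbp2 (chr9:98490344-98490471, plus strand): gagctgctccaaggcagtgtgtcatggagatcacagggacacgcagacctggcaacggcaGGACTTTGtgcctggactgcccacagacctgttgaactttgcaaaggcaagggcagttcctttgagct

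Transcription factors of differentiation were mixed, with a median of 0.13, 5 of 30 higher by 2-fold or more and 2 lower by as much. The 2 lower ones were Sox9 and Myb (-2.08), a factor of progenitors. The 4 Myb probes ranged from -2.21 to -0.08. Nr1h4, the bile acid receptor FXR, differed by 1.43 and Ppara, in the oxidation list, by 1.16. Hnf4a differed by 0.19 and Hnf4g by 0.86. The 3 Hnf4a probes ranged from -0.06 to 0.19, and the other Hnf4g probe differed by 0.03. Cdx2, the intestinal identity factor, differed by -0.98.

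The genes farthest apart were not all members of these lists. Among genes with a plain current symbol and Cy5 well above background on both arrays, Kbtbd11 had the highest difference, at 4.57 on the array with added Ascl2 and 0.07 on the Tcf7l2 null array, although its 3 probes ranged from 0.24 to 4.49. Aldh1l1, a folate dehydrogenase, was 4.45 on the array with added Ascl2 and 0.06 on the Tcf7l2 null array. Cbr3, a carbonyl reductase, differed by 3.90. At the other end, Rgcc, a regulator of the cell cycle, was -4.41 on the array with added Ascl2 and -0.15 on the Tcf7l2 null array. Its difference was -4.26, and -5.22 with the scanner's own ratio. Ctrb1, a chymotrypsinogen, was -1.78 on the array with added Ascl2 and 2.25 on the Tcf7l2 null array. Stmn1, a microtubule regulator, differed by -3.21.

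**Figure D4:**
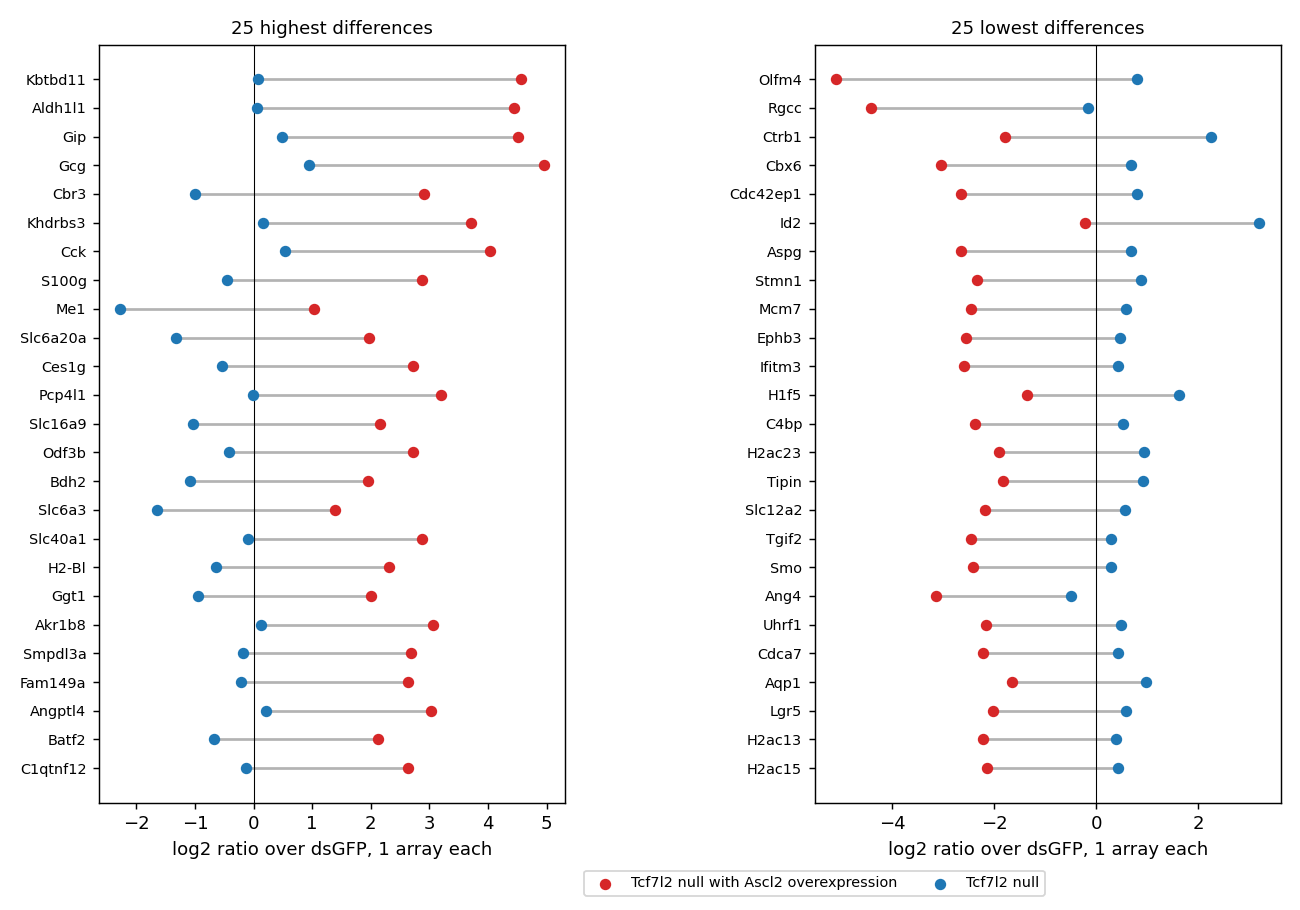
Log2 ratio over dsGFP of the 25 genes with the highest (left) and the 25 with the lowest (right) difference, among genes with a plain current symbol and Cy5 well above background on both arrays, with the array labelled as Tcf7l2 null plus Ascl2 overexpression in red and the array labelled Tcf7l2 null in blue, 1 array each. For Kbtbd11 and Rgcc the red point lies far from 0 and the blue point near it, and for Id2 the blue point lies at 3.20 and the red point near 0.

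For genes dim on 1 of the 2 arrays the Cy5 level gave only a bound. Gas6, a ligand of TAM receptors, was at least 83.6-fold brighter with added Ascl2, and Crym at least 11.9-fold. Epdr1 was at least 16.5-fold brighter on the Tcf7l2 null array and Rps4l at least 8.69-fold. Tmem42 (0.27), Nlk (0.38) and Ptpn12 (0.56) also passed such a Cy5 bound toward the Tcf7l2 null array, but their ratios over dsGFP differed little. Their dsGFP channel was dimmer too on the array with added Ascl2, by -4.01, -3.51 and -3.54.

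The remaining groups had medians within 1 of 0 on the log2 scale. Fetal and regenerative epithelium genes had a median of -0.74, and 6 of 20 were lower by 2-fold or more, among them Ly6a (-1.39) and Clu (-1.08). Keratin and cytoskeleton genes had a median of -0.41, and Krt18 was -0.28 on the array with added Ascl2 and 1.93 on the Tcf7l2 null array, with 1.32 in the dsGFP channel. Interferon response genes had a median of 0.28, with Psmb8, an immunoproteasome subunit, at 2.63 and the membrane protein Ifitm3 at -3.01. Cholesterol synthesis genes had a median of 0.09, and Hedgehog and BMP genes of 0.03, although Smo, the Hedgehog signal transducer, differed by -2.71. The other Smo probe differed by -0.48. Glycolysis genes had a median of -0.29, p53 targets of -0.30 and Eph and ephrin genes of -0.22.

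All 10 epithelial markers checked had Cy5 well above background on both arrays, and their median difference was -0.10. Krt8 (-1.30) was lower by 2-fold or more and 0 were higher by as much, while Epcam differed by -0.09 and Cdh17 by 0.40. Of the mesenchymal and endothelial markers 7 of 13 were measured, with a median of 0.00, and of the immune and blood markers 9 of 12, with a median of 0.01. In each of these lists only 3 members had Cy5 well above background on both arrays, and 0 of those measured passed 2-fold. With the scanner's own ratio the immune markers Cd68 (-2.02), Ptprc (1.55) and Itgam (1.12) did. Of the pancreas, stomach and liver genes 16 of 20 were measured, with a median of 0.15. The liver gene Afp differed by 2.73. Alb, not well above background on the Tcf7l2 null array, was at least 4.89-fold brighter in Cy5 with added Ascl2, and Ctrb1 was lower by 2-fold or more. The collagen genes Col1a1 and Col3a1 were not well above background on either array.

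Arrays labelled as Ascl2 overexpression without Tcf7l2 loss are found elsewhere in the series, and their values are set side by side. The experiment 2 array of Ascl2 overexpression, whose label is also in doubt, read -0.72 at the Ascl2 probe, against 0.01 on the dsGFP self-self array. This array, less the dsGFP self-self array, shares the dsGFP control with both arrays of the comparison. Gcg was 3.98 there, Gip 3.66, Kbtbd11 3.54 and Rgcc -5.03. The proliferation genes had a median of -0.15 there and the absorptive genes of -0.03, and 0 of the proliferation genes passed 2-fold. Of the absorptive genes 13 were higher by 2-fold or more and 10 lower by as much, against 1.02% and 0.948% of all genes, while Paneth cell genes had a median of -1.17. In experiment 1, whose control was VillinCreERT2 organoids, the proliferation medians of the 2 replicates were 0.23 and 0.16 and the absorptive medians -0.41 and -0.51. The differences between these contrasts were not tested.

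**Figure D5:**
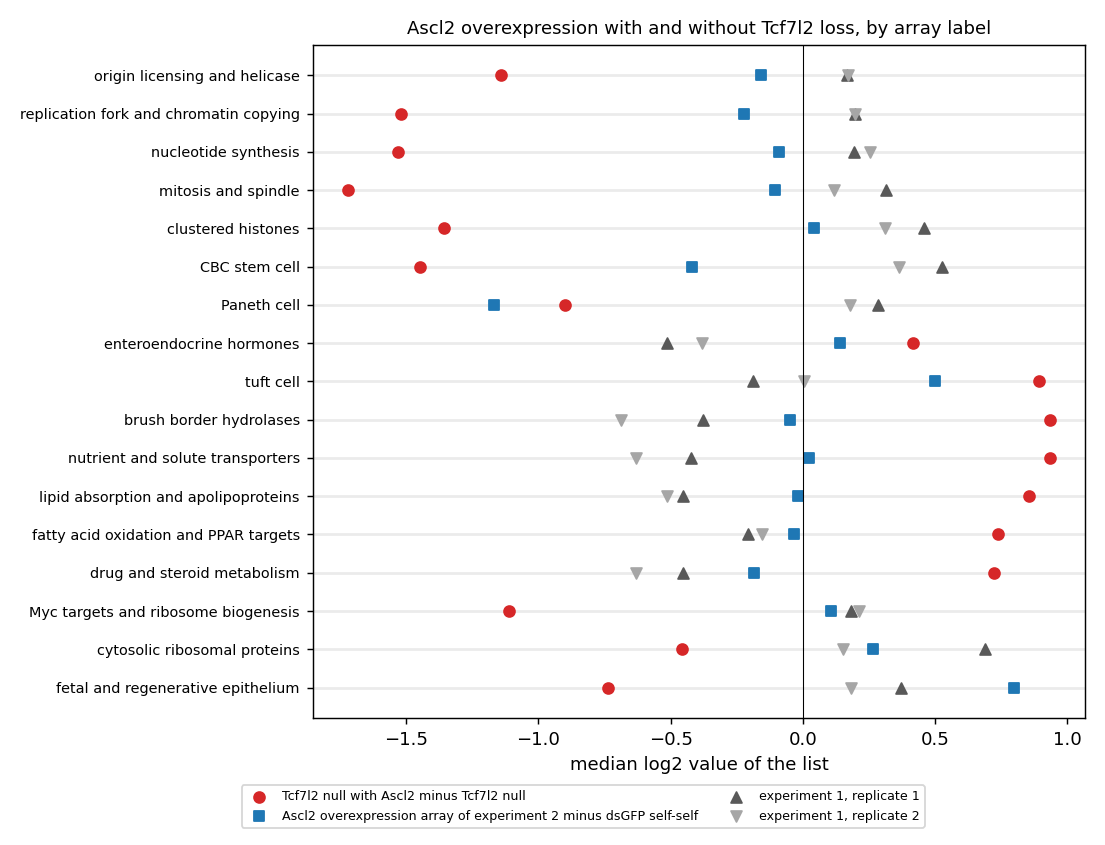
Median log2 value of 17 gene lists, by array label. Red circles show Ascl2 overexpression with Tcf7l2 loss (the 2 arrays of the comparison). Blue squares show the experiment 2 Ascl2 overexpression array less the dsGFP self-self array, and triangles the 2 replicates of experiment 1. The red circles of the division lists lie between -1.72 and -1.14, and the triangles of the same lists lie above 0.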

How the data were processed

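The deposited scanner files hold spot intensities, made with Agilent Feature Extraction 10.5.1.1 per the file headers. Their log10 ratio and the authors' deposited table of log2 ratios were alternatives. Median spot and local background intensities were corrected with normexp (offset 50), and ratios were loess-normalised within arrays (R 4.3.3, limma 3.58.1). The background step was amended after the data were seen. On replicate 2 of experiment 1 a few spots with extreme local background made the normexp fit fail, and its correlation with the scanner ratio over bright spots was 0.38. On every array, spots with a background over 2 times the array's median were therefore given that median (86 spots there, 2 on each array of the comparison), after which the correlation was 0.95. Results with the background as deposited and with other limits are given in the closing section.

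Of 41174 probes, 27607 were well above background on at least 2 of 8 arrays, and the brightest stood for each of 19293 genes. RefSeq's table (GRCm38.p6) named 26918 probes by their own accession, 97 by another and 14159 kept the file's name. Probe coordinates are mm9. Named genes are both targeted genes, the 25 highest and 25 lowest differences among genes with a plain symbol and Cy5 well above background on both arrays, the 5 largest bounds each way and members of 35 lists, at least the 4 farthest with the list median and 2 the other way. Further list members were named after their values were seen. Members and lists were chosen with earlier results of these data known. The number of arrays limits the precision, and the scripts were tested on simulated data.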

Additional observations from a re-analysis of the deposited data

Results flagged for a closer look

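Results were singled out where the difference between the 2 arrays had 1 sign and both experiment 1 replicates of Ascl2 overexpression had the opposite sign, past a minimum size. The minimum was 2-fold for genes and 0.1725 for list medians, the largest absolute list median on the dsGFP self-self array. Several list medians lie close to it. The difference between the experiments was not tested, and experiment and control differ with it. Exchanged labels of the 2 arrays would also turn the sign of the difference. Among lists, the values for the difference, replicate 1 and replicate 2 were as follows. Replication fork genes had -1.52, 0.20 and 0.20, nucleotide synthesis -1.53, 0.19 and 0.25, and CBC stem cell genes -1.45, 0.53 and 0.36. Paneth cell genes had -0.90, 0.29 and 0.18, Myc targets -1.11, 0.18 and 0.21, and clustered histones -1.36, 0.46 and 0.31. Fetal epithelium genes had -0.74, 0.37 and 0.18, and glycolysis genes -0.29, 0.31 and 0.25. Hormones had 0.42, -0.51 and -0.38, brush border hydrolases 0.94, -0.38 and -0.69, and transporters 0.94, -0.42 and -0.63. Lipid absorption genes had 0.86, -0.45 and -0.51, and drug metabolism genes 0.72, -0.45 and -0.63.

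Among genes, Id2 had -3.42, 1.73 and 1.095, and Apcdd1 -1.46, 1.24 and 1.19. Kbtbd11 had 4.49, -1.63 and -1.52, Gip 4.02, -1.06 and -1.04, Gcg 4.00, -1.30 and -1.91, and Cck 3.50, -1.12 and -1.61. Bdh2 had 3.05, -1.39 and -1.099, Slc6a3 3.03, -1.33 and -1.44, and Afp, alpha-fetoprotein, 2.73, -1.63 and -1.86. Sst, with 3.45, -1.69 and -1.81, was not well above background in Cy5 on the Tcf7l2 null array, and Epdr1, with -3.15, 1.53 and 1.16, not on the array with added Ascl2. These 2 differences of ratios are limited by background.

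How many results were singled out depended on the background step, which was amended after the data were seen. With the amended step there were 24, with a limit of 3 or 5 times the median background 24 and 23, and with the scanner's own ratio 33, of which 23 were among the 24. With the background as deposited, where the fit of replicate 2 failed, there were 6, of which 5 were among the 24.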

How the results depend on the processing

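None of the 11 alternatives turned the sign of a named gene past 2-fold or of a list median, except 2 medians near 0: mesenchymal and endothelial (-0.0014 with offset 0) and Hedgehog and BMP (-0.0016 where Cy5 was well above background on both arrays). The counts of genes at least 2-fold higher and lower were 1888 and 1839 with the scanner log ratio, 1241 and 1379 in the authors' deposited table, 910 and 1291 with normexp offset 0, and 948 and 1196 with the Cy5 channel alone. The higher genes made up 37.7% of those past 2-fold here, 50.7% with the scanner ratio and 47.4% in the authors' deposited table. With the scanner ratio the medians were -1.84 for origin genes, -2.01 for CBC stem cell, -1.32 for Paneth, 0.87 for hormones, 1.47 for tuft, 0.57 for pancreas, stomach and liver, and -1.93 for all proliferation genes. In the authors' deposited table they were -1.95 (origin), -2.16 (CBC), -0.70 (Wnt), -0.77 (Notch), -1.32 (Paneth), 0.87 (hormones), 1.51 (tuft), 1.33 (brush border), -0.99 (Eph) and -1.94 (all proliferation). With offset 0 origin genes had -1.64 and CBC genes -1.92. Clustered histones had -0.68 with Cy5 alone and -0.87 with no filter, brush border 1.32 where Cy5 was well above background on both arrays, and mitosis -1.34 with the mean of probes. The causes were not tested. With the background as deposited, an alternative added after seeing the data, the counts were 557 and 923. No paired analysis was possible because each side has 1 array. Among 237 named genes, the difference moved by more than 1 SD of the dsGFP channel difference over all genes at 66 with the scanner ratio, 49 in the authors' deposited table, 47 with offset 0, 95 with Cy5 alone, 31 with the mean of probes and 1 with median centring. Signal over background limits the dim genes: bounds are of Cy5 levels, and their differences of ratios are not bounds.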
